A study of Mus musculus with 4 samples.

Results

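The expression of 10 genes was examined, 6 for scavenger receptors (Msr1, Marco, Colec12, Stab1, Scarb1, Olr1) and 4 for the recognition of dying cells in efferocytosis (the receptors Axl and Mertk and the bridging ligands Gas6 and Mfge8). They were looked up by gene symbol among the 24421 genes of the deposited matrices, and each of the 10 was found and passed the filter on low values. RNA-seq had been performed on epididymal adipose tissue of wild-type male C57BL/6J mice, with 2 libraries from mice fed continuously (Ctrl) and 2 from weight-cycled mice (WC1). High-fat diet (HFD) was begun at an age of 10 weeks in Ctrl and given without a break for 14 weeks. In WC1 it was begun at an age of 8 weeks and given for 8 weeks, then replaced by standard diet (SD) for 2 weeks, and resumed for 6 weeks. Each group thus reached 24 weeks of age with 14 weeks of HFD, and the break in the diet cannot be told apart from the age at which HFD began. The labels do not say whether a library came from a single mouse or from a pool, so that the p-values measure the spread between libraries.

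Scavenger receptors take up modified lipoproteins, bacteria, matrix fragments and other polyanionic cargo, and many are carried by macrophages, which surround dead adipocytes in the crown-like structures of obese fat. Efferocytosis is the removal of apoptotic cells: a bridging ligand binds phosphatidylserine on the dying cell with 1 end and a receptor on the phagocyte with the other. Gas6 and protein S (Pros1) bridge to the TAM receptor tyrosine kinases Tyro3, Axl and Mertk, and Mfge8 bridges to αv integrins.

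The libraries held between 61465029 and 90965297 reads, at which 3 reads correspond to 0.0345 to 0.0492 CPM, and the fewest reads behind any value of the 10 genes were 167. The tissue label was met by the adipocyte markers, which summed to between 10378 and 24084 CPM, and 7 of 9 epididymis markers were at 0 in every library, with a summed level of 3.24 CPM or less. The cell type markers moved between the groups. Of 13 macrophage markers, 6 were called lower in WC1, and their summed level was 14718 and 13317 CPM in Ctrl against 9023 and 6277 CPM in WC1. Called lower were also 4 of 6 resident macrophage, 3 of 7 lipid-associated macrophage, 3 of 9 fibroblast and 5 of 6 mast cell markers. In the TPM matrix, fewer were called lower by limma, with 2 macrophage, 2 resident macrophage, 1 lipid-associated macrophage, 2 fibroblast and 5 mast cell markers. Called higher in CPM were 8 of 11 adipocyte, 7 of 10 endothelial and 4 of 8 pericyte and smooth muscle markers, and the summed endothelial level was 540 and 597 CPM in Ctrl against 1079 and 1390 CPM in WC1. Each of the other 10 marker lists, epididymis among them, held between 0 and 3 called genes.

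The first question was whether the uptake receptors differed after weight cycling from those under continuous HFD. In WC1, 6 of the 10 genes fell (adjusted p under 0.05 in limma): the scavenger receptors Msr1, Marco, Colec12 and Stab1, the receptor Mertk and the ligand Gas6. In limma this count was 0 without Ctrl 1 and 0 without Ctrl 2, with 6 and 7 genes lower at an unadjusted p under 0.05, as 2621 and 3115 of all 14106 genes were in either direction. Over all 14106 genes tested, 7.71% were called lower and 10.2% higher. None of the 10 genes was called higher in limma, with 1 at an unadjusted p under 0.05, and this count was 0 in edgeR and 1 in DESeq2, beside 1476 and 2125 of all genes and 1443 in limma. The WC1 libraries lay below both Ctrl libraries in 7 genes and above both in 2, where 36.6% and 32.7% of all tested genes did so. The median log2 change, WC1 minus Ctrl, was -0.63 over the 10 genes, compared to -0.02 over all genes. In bulk tissue, fewer cells of a type and less RNA per cell cannot be told apart, and the part that the lower macrophage marker level had in these falls was not tested.

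**Figure D1:**
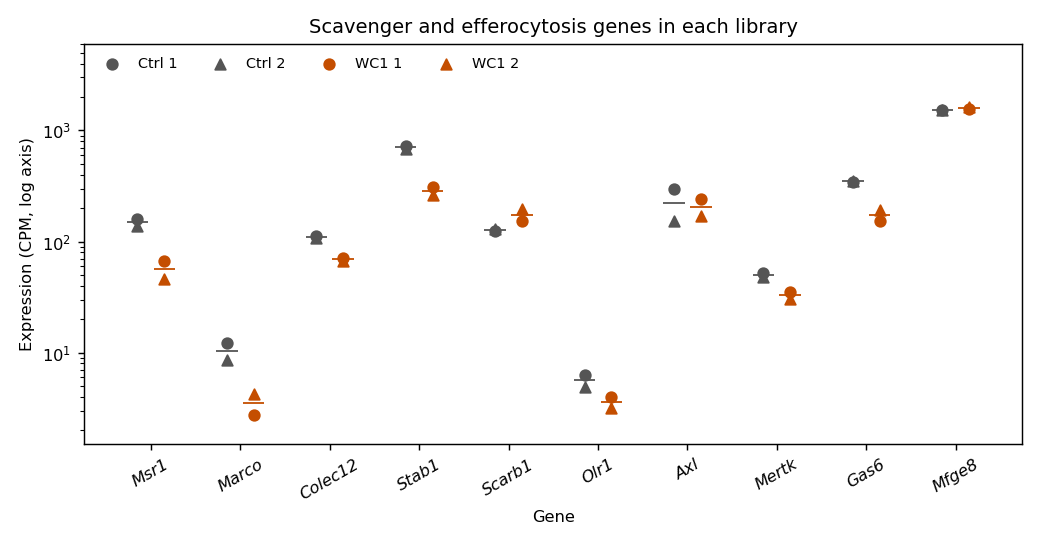
Expression of the 10 genes in each library in CPM on a log axis, with circles for library 1, triangles for library 2, grey for Ctrl, orange for WC1 and a line at each group mean. Both WC1 libraries of Msr1, Marco, Colec12, Stab1, Olr1, Mertk and Gas6 lie below both Ctrl libraries, the 4 libraries of Axl overlap, and those of Mfge8 stand between 1521 and 1624 CPM.

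**Figure D2:**
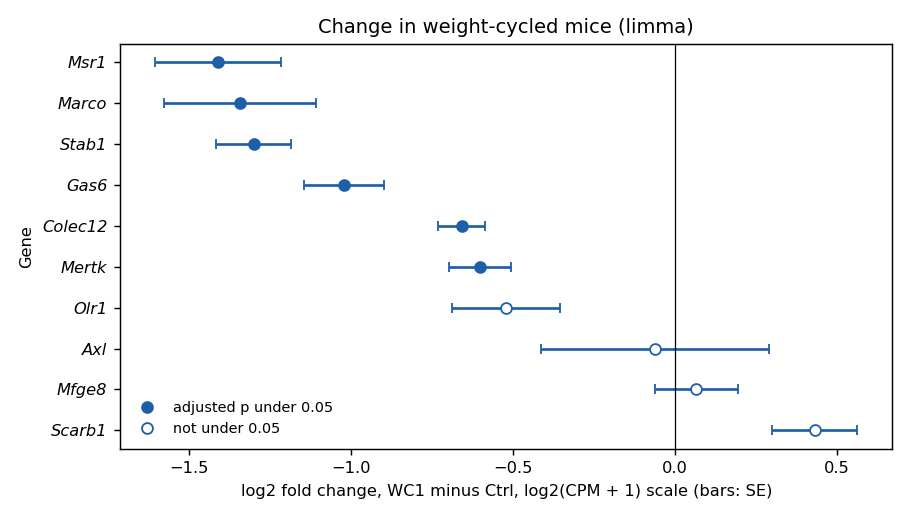
The log2 change of each gene, WC1 minus Ctrl, on the log2(CPM + 1) scale, with bars for the SE from limma and filled points for genes with an adjusted p under 0.05. The 6 filled points lie between -1.41 for Msr1 and -0.60 for Mertk, and the open points of Axl and Mfge8 lie within 0.07 of 0.

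Msr1, Marco and Colec12 belong to the class A scavenger receptors, which share a collagen-like stalk, and were lower in WC1. Of the other genes of this class in the lists, Scara3 had 42.4 and 42.7 CPM in Ctrl and was higher in both WC1 libraries (54.6 and 45.4 CPM, log2 change 0.22, adjusted p in limma 0.19), and Scara5 was not called. Msr1 encodes the macrophage scavenger receptor, which takes up modified low-density lipoprotein, and lies at chr8:39581685-39642673 on the minus strand (mm10). Values of 160 and 138 CPM in the Ctrl libraries stood against 67.0 and 45.7 CPM in WC1. The lowest Ctrl library was thus 2.06 times the highest WC1 library. The group means were 149 ± 15 and 56.4 ± 15 CPM (SD, n = 2 each), with a log2 change of -1.41 ± 0.19 (SE, adjusted p in limma 0.019).

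Marco encodes a receptor for bacteria and particles that is typical of subsets of tissue macrophages (chr1:120474538-120505024, minus strand). Its level was 12.2 and 8.62 CPM in Ctrl, compared to 2.74 and 4.27 CPM in the WC1 libraries. The libraries of Marco differed by 1.41-fold in Ctrl and 1.56-fold in WC1, but the groups did not overlap. On the log2(CPM + 1) scale these differences were larger than those of 97.5% and 92.7% of the genes tested. Marco fell by 1.34 ± 0.24 on the log2 scale (adjusted p in limma, 0.027), and its libraries held between 167 and 832 reads of the gene. Without a filter on low values the adjusted p in limma was 0.055 and the call was lost.

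Colec12 encodes a class A receptor with a C-type lectin domain, found on vascular endothelium among other cells (chr18:9707595-9882644, plus strand). Its libraries were tight, at 112 and 108 CPM in Ctrl and 71.7 and 66.9 CPM in WC1. The nearest libraries of the groups were further apart than the libraries of either group, which differed by 1.04-fold in Ctrl and 1.07-fold in WC1. Colec12 fell by 0.66 ± 0.07 on the log2 scale (adjusted p in limma, 0.014). Of the markers of cell types that could carry it, 7 of 10 endothelial ones were called higher, and 3 of 9 fibroblast and 6 of 13 macrophage ones lower, and their part in the values of Colec12 was not tested.

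The other 3 scavenger receptors belong to separate families and did not move together. Stab1 encodes stabilin-1, a receptor of tissue macrophages and sinusoidal endothelium that clears modified lipoproteins, matrix fragments and apoptotic cells (chr14:31139013-31168641, minus strand). The Ctrl libraries had 730 and 686 CPM and the WC1 libraries 312 and 264 CPM. The nearest libraries of the groups were 2.20-fold apart, the widest gap among the 10 genes. Stab1 fell by 1.30 ± 0.11 on the log2 scale and had the smallest adjusted p of the 10 genes in limma (0.012).

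Scarb1 encodes the receptor that takes cholesteryl esters from high-density lipoprotein into the cell without degrading the particle (chr5:125277087-125341094, minus strand). Its 2 Ctrl libraries had 125 and 131 CPM, and its WC1 libraries 152 and 195 CPM. Both WC1 libraries were above both Ctrl libraries, but the WC1 libraries differed by 1.28-fold between themselves. The log2 change of 0.43 ± 0.13 did not pass the threshold (adjusted p in limma, 0.082). DESeq2 on the recovered reads called it (adjusted p = 0.018), and so did limma without WC1 1, with a log2 change of 0.61 compared to 0.25 without WC1 2, and limma with a replicate block (0.040). Of the cell type markers, 8 of 11 adipocyte, 7 of 10 endothelial and 4 of 8 pericyte and smooth muscle ones were called higher. Their part in the values of Scarb1 was not tested.

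Olr1 encodes the lectin-like receptor for oxidized low-density lipoprotein (chr6:129485244-129507165, minus strand) and was the least abundant of the 10 genes in TPM. Values of 6.33 and 4.93 CPM in the Ctrl libraries stood against 4.03 and 3.19 CPM in WC1. The groups did not overlap, with the nearest libraries 1.22-fold apart, which was less than the 1.28-fold spread within Ctrl. The log2 change of -0.52 ± 0.17 did not pass the threshold (adjusted p in limma, 0.087), which it passed without WC1 1 (0.033) and with a replicate block (0.039).

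Next, the TAM receptors were examined. Mertk encodes the TAM kinase that macrophages use for engulfment of apoptotic cells under resting conditions (chr2:128698956-128802894, plus strand). Its level was 52.1 and 48.3 CPM in Ctrl, compared to 35.0 and 30.6 CPM in the WC1 libraries. The spread was 1.08-fold within Ctrl and 1.15-fold within WC1, against 1.38-fold between the nearest libraries of the groups. Mertk fell by 0.60 ± 0.10 on the log2 scale (adjusted p in limma, 0.024).

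Axl encodes the TAM kinase that is induced in inflamed tissue and is also found on fibroblasts and vascular cells (chr7:25757273-25788705, minus strand). The Ctrl libraries had 296 and 152 CPM and the WC1 libraries 243 and 170 CPM. The WC1 libraries lay between the Ctrl libraries, so that the groups overlapped completely. The 1.95-fold difference between the Ctrl libraries was larger than that of 99.4% of the genes tested, on the log2(CPM + 1) scale. The log2 change was -0.06 ± 0.35 (adjusted p in limma, 0.91). Its sign was set by single libraries, with 0.42 without Ctrl 1 and -0.54 without Ctrl 2, so these data give no direction for Axl. In both groups library 1 was higher than library 2.

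Tyro3, the remaining TAM receptor, was far less abundant than Axl and Mertk, at between 1.56 and 1.88 TPM over the 4 libraries, and had a log2 change of -0.14 in CPM (adjusted p in limma, 0.46).

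The bridging ligands differed from each other. Gas6 encodes the vitamin K-dependent ligand of the TAM receptors (chr8:13465374-13494490, minus strand). Values of 342 and 354 CPM in the Ctrl libraries stood against 153 and 191 CPM in WC1. Both WC1 libraries were thus well below the Ctrl libraries, which differed by only 1.04-fold. Gas6 fell by 1.02 ± 0.12 on the log2 scale (adjusted p in limma, 0.016), to 49.4% of its Ctrl mean in CPM. Pros1, which encodes the second TAM ligand, fell by 0.49 ± 0.09 on the log2 scale, from 200.4 and 199.5 CPM to 152 and 133 CPM (adjusted p in limma, 0.029).

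Mfge8 encodes lactadherin, the bridge to αv integrins (chr7:79133768-79149060, minus strand). The Ctrl libraries had 1521 and 1532 CPM, compared to 1572 and 1624 CPM in the WC1 libraries. It was the most abundant of the 10 genes in TPM, and its mean was above that of 99.5% of the genes tested. Both WC1 libraries were above both Ctrl libraries, but only by 1.03-fold between the nearest ones, and the log2 change was 0.07 ± 0.13 (adjusted p in limma, 0.73). Quantile normalization turned its sign, with -0.06.

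Promoters of 7 of the 10 genes were read from RefSeq (GRCm38.p6, 250 bases before to 50 after the start site). The 4 efferocytosis genes Axl, Mertk, Gas6 and Mfge8 each held the GC box GGGCGG on either strand, which 35.6% of 32817 promoters did, whereas the scavenger receptor promoters of Marco, Stab1 and Olr1 held none. Of the other motifs searched on both strands, the AP-1 site TGANTCA (7.81% of all promoters) and the nuclear receptor half-site AGGTCA (16.3%) were found in Olr1 only. The PU.1 box GAGGAAGT (3.20%), the E-box CACGTG (7.15%) and the TATAAA element (13.6%) were not found in these 7 windows. The match is a description of these letters in these windows and not of binding. The ligand promoters, with 4 GC boxes each, and that of Marco, with none, are shown as examples. Any relation of these motifs to the changes in expression was not tested. Capitals mark GC boxes on either strand.
Gas6 (chr8:13494486-13494785, minus strand): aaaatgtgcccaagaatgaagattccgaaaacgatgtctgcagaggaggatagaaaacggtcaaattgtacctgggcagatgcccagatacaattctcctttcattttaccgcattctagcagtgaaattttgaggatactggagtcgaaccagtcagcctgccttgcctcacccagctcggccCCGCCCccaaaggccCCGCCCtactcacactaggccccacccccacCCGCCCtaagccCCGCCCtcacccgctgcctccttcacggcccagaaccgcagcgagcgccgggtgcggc
Mfge8 (chr7:79149011-79149310, minus strand): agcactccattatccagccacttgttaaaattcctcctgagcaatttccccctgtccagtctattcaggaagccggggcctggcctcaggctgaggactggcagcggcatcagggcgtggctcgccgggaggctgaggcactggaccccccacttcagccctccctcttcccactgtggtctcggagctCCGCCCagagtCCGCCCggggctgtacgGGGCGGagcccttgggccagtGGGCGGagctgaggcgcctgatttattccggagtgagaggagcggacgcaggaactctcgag
Marco (chr1:120504975-120505274, minus strand): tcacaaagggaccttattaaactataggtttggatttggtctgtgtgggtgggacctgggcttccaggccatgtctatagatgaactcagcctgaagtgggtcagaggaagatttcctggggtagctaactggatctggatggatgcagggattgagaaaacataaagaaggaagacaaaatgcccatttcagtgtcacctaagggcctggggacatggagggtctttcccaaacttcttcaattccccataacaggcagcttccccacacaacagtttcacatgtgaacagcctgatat
The GC boxes of Gas6 began 66, 51, 20 and 8 bases before the start site and those of Mfge8 61, 50, 33 and 12 bases before it. The GC content was 58.3% in Gas6, 64.3% in Mfge8 and 47.3% in Marco, compared to a median of 52.7% over all promoters.

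To compare levels between the genes, TPM was used, in which reads are corrected for transcript length. In Ctrl, Mfge8 had 1414 ± 18 TPM, followed by Gas6 with 258 ± 8.3, Stab1 with 170 ± 6.3 and Scarb1 with 99.4 ± 3.9 TPM. Axl (85.6 ± 39 TPM), Msr1 (81.3 ± 7.8 TPM), Colec12 (63.5 ± 1.4 TPM), Mertk (27.1 ± 1.2 TPM), Marco (10.0 ± 2.4 TPM) and Olr1 (3.02 ± 0.51 TPM) came next. Neighbours in this order were apart in both libraries, with 2 exceptions: the ranges of Scarb1 and Axl and those of Axl and Msr1 overlapped.

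In WC1 the order changed. Mfge8 stayed first with 1638 ± 74 TPM, and Scarb1, with 149 ± 29 TPM, stood beside Gas6, with 141 ± 25 TPM. The ranges of these overlapped, as did those of Axl (86.9 ± 20 TPM) and Stab1 (76.2 ± 7.4 TPM). Below these came Colec12 with 44.1 ± 1.2, Msr1 with 34.4 ± 8.9, Mertk with 19.5 ± 1.4, Marco with 3.74 ± 1.2 and Olr1 with 2.14 ± 0.30 TPM. Stab1 thus stood at rank 3 in Ctrl and at rank 5 in WC1, and Msr1 at ranks 6 and 7. In TPM the median log2 change of all genes was 0.12 above that in CPM, and the 6 falls were smaller (Msr1 -1.24, Marco -1.23, Stab1 -1.15, Gas6 -0.88, Colec12 -0.52, Mertk -0.46) but each still passed in limma (adjusted p from 0.015 to 0.037).

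Ratios of TPM within a library were used to set the genes against each other. There was 1 unit of Gas6 for 5.56 and 5.41 units of Mfge8 in Ctrl, compared to 12.9 and 10.7 in WC1. The mean ratio of the bridging ligands in WC1 was thus 2.15 times that in Ctrl, with no overlap between groups. Gas6 per Mertk was 8.99 and 10.0 in Ctrl and 5.99 and 8.57 in WC1, so that the ligand was lower in both WC1 libraries relative to this receptor too. Gas6 per Axl was 2.23 and 4.52 in Ctrl and 1.22 and 2.17 in WC1, where the nearest libraries of the groups, with 2.23 and 2.17, almost met. Axl per Mertk overlapped, with 4.03 and 2.22 in Ctrl compared to 4.92 and 3.94 in WC1. Among the scavenger receptors, Scarb1 per Msr1 was 1.11 and 1.35 in Ctrl compared to 3.16 and 6.04 in WC1, while Stab1 per Msr1 overlapped between groups, with 2.01 and 2.19 in Ctrl and 2.00 and 2.52 in WC1. With 2 libraries a group, an exact permutation test of a single value cannot reach 0.05, the smallest two-sided p being 0.333, so the ratios are given as a description.

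**Figure D3:**
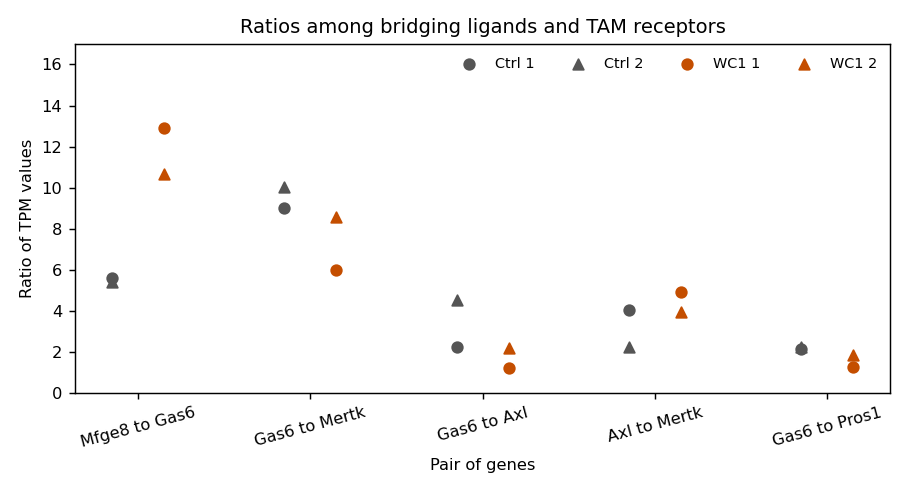
Ratios of TPM values within each library, with circles for library 1, triangles for library 2, grey for Ctrl and orange for WC1. Mfge8 per Gas6 is 5.41 and 5.56 in the Ctrl libraries and 10.7 and 12.9 in the WC1 libraries, whereas the points of Axl per Mertk overlap.

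Since the macrophage markers were lower in WC1, each gene was also set against their summed level in the same library. Per 1000 CPM of the 13 markers, Msr1 was at 10.9 and 10.4 CPM in Ctrl compared to 7.43 and 7.28 CPM in WC1. Stab1 was at 49.6 and 51.5 in Ctrl and at 34.6 and 42.0 in WC1. Msr1 and Stab1 thus remained lower than Ctrl in both WC1 libraries also relative to these markers, by 0.53 and 0.41 on the log2 scale. Mertk, in contrast, was higher in both WC1 libraries on this scale, with 3.54 and 3.63 in Ctrl and 3.88 and 4.87 in WC1. Lyz2 had the largest part in the sum, at 6190 and 5352 CPM in Ctrl and 2875 and 2048 in WC1. The log2 changes of single markers ranged from -1.25 for Lyz2 to -0.22 for Fcgr1. That of Mertk (-0.60) lies within this range, so its direction on this scale depends on the markers chosen.

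Relative to the same markers, the other called genes overlapped between groups. Colec12 was at 7.62 and 8.08 in Ctrl and 7.95 and 10.7 in WC1. Gas6 was at 23.2 and 26.6 in Ctrl, compared to 16.9 and 30.4 in WC1. Marco was at 0.827 and 0.647 in Ctrl and 0.303 and 0.681 in WC1. Olr1, Axl, Scarb1 and Mfge8 were higher than Ctrl in both WC1 libraries relative to the markers, by 0.26, 0.83, 1.33 and 0.96 on the log2 scale. The log2 changes in CPM of Olr1 (-0.52), Colec12 (-0.66) and Gas6 (-1.02) lie between those of the markers Fcgr1 and Lyz2. Their place on this scale thus depends on the markers summed. The marker sum itself was lower in WC1, with a log2 ratio of the group means of -0.87, so that a gene with equal CPM in both groups stands higher by about that much on this scale. The exact two-sided permutation p was 0.333, the smallest possible, for the 7 genes without overlap. Cells other than macrophages also express several of these genes, and the share of each cell type in them was not tested.

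**Figure D4:**
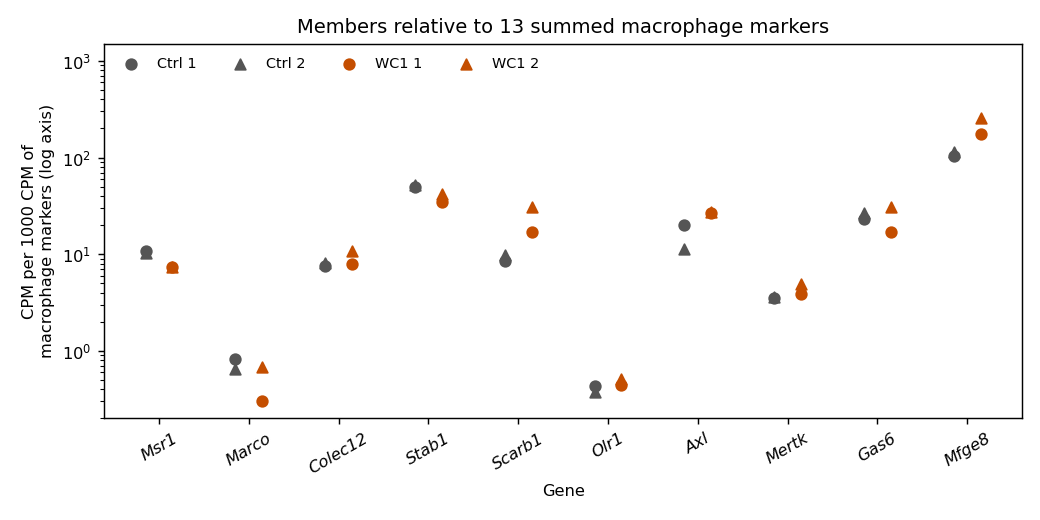
CPM of each gene per 1000 CPM of 13 summed macrophage markers in the same library, on a log axis, with circles for library 1, triangles for library 2, grey for Ctrl and orange for WC1. Msr1 and Stab1 lie lower in both WC1 libraries, Scarb1 and Mfge8 higher, and the points of Colec12, Marco and Gas6 overlap between groups.

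The remaining genes of uptake and clearance were then examined in 6 lists with 82 genes, of which 78 were tested. In limma, 10 fell and 3 rose, beside 7.71% and 10.2% of all genes, and the median log2 change was -0.17. WC1 libraries lay below both Ctrl libraries in 50 of the 78 genes and above both in 15, where 36.6% and 32.7% of all tested genes did so. The count depended on the libraries, with 33 genes called lower without WC1 1, 17 without WC1 2, 0 without Ctrl 1 and 1 without Ctrl 2. Over all 14106 genes the calls moved the same way, from 1088 called lower with all libraries to 2748, 1231, 4 and 6 in these fits.

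Of 14 other scavenger receptors and co-receptors, 1 fell and 13 were not called, where 7.71% of all tested genes were called lower. Mrc1, the mannose receptor, fell from 523 and 509 CPM to 312 and 247 CPM, with a log2 change of -0.89 ± 0.13 (adjusted p in limma, 0.021). Scara5, a ferritin receptor, was at 114 and 113 CPM in Ctrl compared to 93.7 and 79.9 CPM in WC1, just outside the threshold (-0.38 ± 0.09, adjusted p in limma 0.053). It was called by DESeq2 (adjusted p = 0.011), and by limma with median-of-ratios scaling (0.047), without WC1 1 (0.0034), without WC1 2 (0.044) and with a replicate block (0.037). The list had a median log2 change of -0.22, compared to -0.02 over all genes.

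Of 15 tested genes for other receptors and bridging molecules of apoptotic cells, 3 fell and 1 rose, beside 7.71% and 10.2% of all genes. C1qa, a chain of the complement opsonin C1q, fell from 874 and 853 CPM to 547 and 421 CPM (-0.85 ± 0.15, adjusted p in limma 0.028, and 0.054 without a filter), and C1qc fell by 0.80 on the log2 scale (adjusted p in limma 0.038, and 0.053 in TPM). Pros1, given above, also fell. Thbs1, which encodes thrombospondin-1, a bridge to CD36, rose by 0.76 on the log2 scale, from 150 and 196 to 327 and 259 CPM (adjusted p in limma, 0.045). The integrin subunits that receive Mfge8 were not called, with log2 changes of -0.35 for Itgav, -0.46 for Itgb3 and -0.14 for Itgb5. C1qc, Thbs1, the integrins and Scara3 were named after their values had been seen.

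Among 13 genes for find-me, eat-me and do-not-eat-me signals, 3 fell and 10 were not called, beside 7.71% of all genes called lower. Panx1 encodes the channel through which dying cells release nucleotides that attract phagocytes. It fell from 61.9 and 54.0 CPM to 10.7 and 9.72 CPM, a log2 change of -2.39 ± 0.10 (adjusted p in limma, 0.0040), which was larger than that of any of the 10 genes. Cx3cl1, the membrane chemokine fractalkine, fell by 0.72 ± 0.11 (adjusted p in limma, 0.023). Sphk1, which makes the attractant sphingosine 1-phosphate, was named after its values had been seen and fell by 1.55 on the log2 scale. Cd47, the do-not-eat-me signal, and its receptor Sirpa were not called, with log2 changes of -0.23 and -0.48.

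Of 17 genes for engulfment and digestion of the cargo, 2 fell, beside 7.71% of all genes. Elmo1, part of the module that activates Rac at the phagocytic cup, fell by 0.42 ± 0.08 (adjusted p in limma, 0.031), and the lysosomal membrane protein Lamp2 fell by 0.53 ± 0.12 (adjusted p in limma, 0.044). Both calls were near the threshold: that of Elmo1 was lost in TPM (adjusted p in limma, 0.082), that of Lamp2 under quantile normalization (0.051), and both without a filter or without the abundance trend, with adjusted p values from 0.050 to 0.073. The libraries of the groups did not overlap in 16 of these 17 genes, 14 of which were lower and 2 higher in WC1, beside 36.6% and 32.7% of all tested genes. The median log2 change of this list was -0.19.

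Of 11 genes that activate, shed or control the TAM system, 1 fell and 1 rose, beside 7.71% and 10.2% of all genes. Socs3, a suppressor of cytokine signalling, fell by 0.85 ± 0.13 (adjusted p in limma, 0.024). Vkorc1l1, a vitamin K epoxide reductase of the pathway that carboxylates Gas6 and Pros1, rose by 0.34 ± 0.07 (adjusted p in limma, 0.034, and 0.057 without the abundance trend), from 93.0 and 96.6 CPM to 124 and 118 CPM. Ggcx, the carboxylase itself, had a log2 change of 0.13 (adjusted p in limma, 0.26). Nr1h3 and Nr1h2, the liver X receptors that are known to induce Mertk, had log2 changes of 0.20 and -0.12 and were not called in CPM, whereas Nr1h3 was called higher in TPM (0.36, adjusted p in limma 0.045). Tyro3, Cd47, Sirpa, Ggcx and the liver X receptors were likewise named with their values known.

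Of 8 tested lipoprotein partners of Scarb1, 1 rose, beside 10.2% of all genes. Vldlr, the very low-density lipoprotein receptor, rose from 71.1 and 82.7 CPM to 130 and 157 CPM (0.89 ± 0.13, adjusted p in limma 0.020). Lipg, endothelial lipase, was at 1.21 and 1.18 CPM in Ctrl compared to 1.88 and 2.00 CPM in WC1 (0.42 ± 0.12, adjusted p in limma 0.070, and 0.040 without the abundance trend).

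The patterns of the genes over the 4 libraries were compared by the root mean square (RMS) difference of log2(CPM + 1), centred on each gene's own mean. Among the 45 pairs of the 10 genes, Colec12 and Mertk were nearest (0.05 on the log2 scale), followed by Olr1 and Mertk (0.09), Colec12 and Olr1 (0.12) and Msr1 and Stab1 (0.13). Msr1 and Stab1 were lowest in WC1 2, whereas Marco and Gas6 were lowest in WC1 1. Of 10788 other genes with a mean of at least 5 CPM, the nearest were Ccr3 and Bmper for Msr1, Tmem8 and Txn1 for Stab1, Pcdhga4 and Cdh11 for Marco, Olfr1033 and Clcf1 for Gas6, Acot7 and Ap2s1 for Colec12 and Oaz1 and Fam63a for Mertk. Their RMS differences ranged from 0.0069 for Oaz1 to 0.13 for Cdh11. With 4 libraries such likeness is a description only.

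Lastly, each library was left out in turn. The 6 falls kept their direction in each case, with log2 changes between -1.68 and -1.14 for Msr1, -1.59 and -1.09 for Marco, -1.42 and -1.18 for Stab1, -1.18 and -0.86 for Gas6, -0.71 and -0.61 for Colec12 and -0.70 and -0.51 for Mertk. The 6 falls were no longer called in limma without Ctrl 1 or without Ctrl 2, and nearly all calls among all genes were lost too. With 1 library left in a group, limma estimates the spread from the pair of the other group alone. Without WC1 1, 7 of the 10 genes were called lower, Olr1 among them, beside 2748 of all 14106 genes, and without WC1 2 there were 6, beside 1231.

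**Figure D5:**
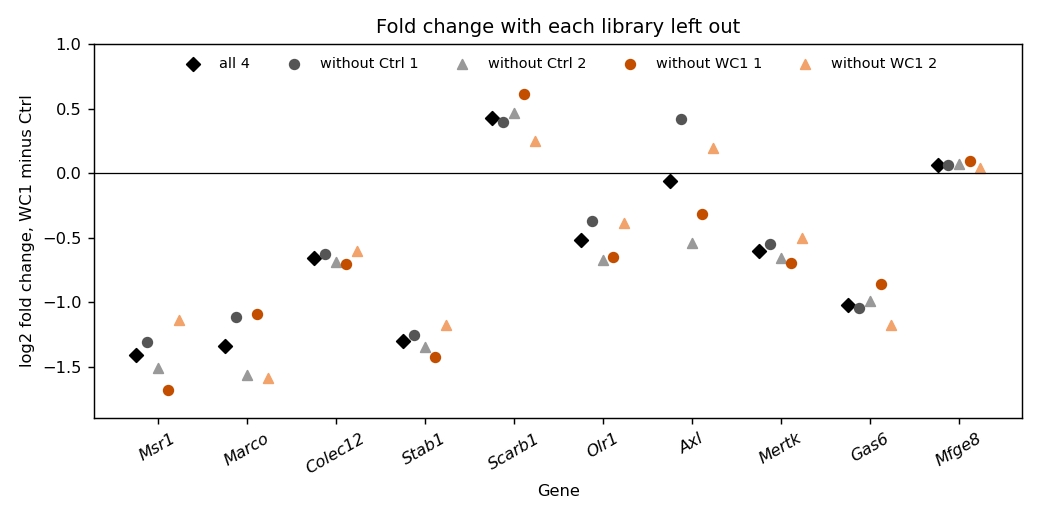
The log2 change of each gene, WC1 minus Ctrl, with all 4 libraries (diamonds) and with each library left out (grey for a Ctrl library, orange for a WC1 library). The points of Msr1, Marco, Colec12, Stab1, Mertk and Gas6 stay below 0 in each case, and those of Axl spread from -0.54 to 0.42 on both sides of 0.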

How the data were processed

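Poly(A) RNA libraries had been prepared with a directional kit. Per the labels, the submitters' processing notes name fastp, HISAT2, StringTie and the mm10 build, with no versions, while for the annotation and for reads shared between genes the treatment is not given in the sources used. The authors deposited a matrix named CPM, a signal proportional to reads with a library size rescaled per library (column sums 97.6% to 105% of plain CPM), and a matrix of TPM. In the first, 100% of values in each library were whole multiples of 1 read to within 0.01 read, and these reads were used for edgeR 4.0.16 and DESeq2 1.42.0 as alternatives.

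A gene was tested if 2 or more of the 4 libraries reached 0.5 CPM (14106 genes). WC1 was compared with Ctrl on log2(CPM + 1) by limma 3.58.1 in R 4.3.3 (two-sided, variance moderated along an abundance trend, no covariates), with Benjamini-Hochberg adjustment over these genes and a threshold of 0.05. The pseudocount of 1 understates the change of low genes. The study's minimum of 0.5 CPM was used. The number of libraries that had to reach it is not given in the sources used and was set at 2 here. The study's fold changes of RNA-seq were obtained with iDEP, for which the test chosen is not given in the sources used.

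The members, the 6 pathway lists and the 18 marker lists were chosen with earlier results of these data known. Named genes were the 10 members, the 2 tested genes with the smallest p in each pathway list and the 2 genes nearest in pattern to each called member (predicted genes, Rik symbols and pseudogenes left out). Genes named outside this rule are said to be so, or belong to the TAM and integrin systems described. Rubcn was matched by its RefSeq synonym. Gene positions are from GENCODE M21. The fits were tested on simulated data. Other pseudocounts, filters, scalings, matrices, tools and thresholds and leaving out each library were tried as alternatives.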

Additional observations from a re-analysis of the deposited data

How the results depend on the processing

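With 2 libraries per group, the spread between libraries is estimated from few values. Where 1 library is left out, the lone partner is taken to vary as the other pair does. Of the 10 members, 0 were called higher and 6 lower. Over the 4 fits with a library left out, these counts ranged from 0 to 1 and from 0 to 7. The 3 and 10 other pathway genes called higher and lower ranged from 0 to 9 and from 0 to 33. The cause was not tested. DESeq2 called 1 and 6 members and 6 and 23 pathway genes higher and lower, beside 2125 and 1736 of all genes. In the TPM matrix 5 pathway genes were called higher, beside 2054 of all genes. Without a filter, 6 pathway genes were called lower, beside 532 of 18132 genes. Another setting loosened the limit of the adjusted p to 0.1 and added a required 2-fold change. It called 0 pathway genes higher and 2 lower, and 4 members lower, beside 359 and 206 of all genes called higher and lower. The other settings, apart from the replicate block given next, left these counts within 1.5 times.

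Libraries are numbered 1 and 2 in each group, with no statement in the labels that equal numbers pair mice. The differences between libraries 1 and 2 correlated across 14106 genes with r = 0.19 between the groups, and 2 pairs are too few to show a pairing. When a replicate block for the number was added, 1 member was called higher (Scarb1) and 7 lower (Olr1 in addition), and 6 and 17 pathway genes were called, beside 1769 and 1497 of all genes (1443 and 1088 without the block).

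The sign of Axl, which was not called, turned under quantile normalization (0.030), in TPM (0.078), and when Ctrl 1 or WC1 2 was left out (0.42 and 0.19, in a range from -0.54 to 0.42 over the 4 libraries), and that of Mfge8, also not called, under quantile normalization (-0.062). The alternatives gave 372 values for the members and for the 2 genes with the smallest p in each pathway list. Of these values, 305 kept their direction and side of the threshold, 51 lost a call, 11 gained one and the 5 given above turned. The genes nearest in pattern and the other genes named in the text were not counted here.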

Other observations

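Axl was 1.95-fold higher in Ctrl 1 than in Ctrl 2 and 1.42-fold higher in WC1 1 than in WC1 2. A difference of at least 0.5 on the log2 scale towards library 1 in both groups was found in 24 of 14106 genes (0.17%), and one towards library 2 in 36. Adam17, which encodes a protease known to shed TAM receptors, was also among the 24, with 141 and 53.9 CPM in Ctrl and 122 and 49.2 CPM in WC1. It was noticed after its values had been seen, and so were C5ar1, the complement C5a receptor, with 330 and 44.3 CPM in Ctrl and 214 and 17.03 CPM in WC1, and Rps27, with 207 and 4.45 CPM in Ctrl and 161 and 3.78 CPM in WC1. Mertk and Gas6 were not among the 24.

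Mfge8 made up 62.8% and 65.1% of the summed TPM of the 10 genes in Ctrl and 74.4% and 74.8% in WC1. The sum itself was 2231 and 2191 TPM in Ctrl and 2131 and 2260 TPM in WC1 and overlapped between groups, while the sum without Mfge8 was 830 and 765 TPM in Ctrl and 545 and 569 TPM in WC1.

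The ratio of TPM to CPM, divided by the median of its library, moves with the transcript length that the authors' processing assigned to a gene. Between groups it differed by 1.83% for Msr1 and by between -0.243% and 0.395% for the other genes.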
